A study of Mus musculus with 5 samples.

Results

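Hepatic stellate cells (HSC) are the pericytes of the liver sinusoid and the main store of vitamin A in the body. The cells described here were taken as HSC by a rule on their RNA. They were sorted as lacking the vitamin A (VitA) autofluorescence by which such cells are usually collected. They came from the VitA-Col1a1+ gate of livers exposed to diethylnitrosamine and a Western alcohol diet (DEN+WAD), and numbered 599 of the 2729 cells of that library (21.9%, exact 95% interval 20.4 to 23.6%) and of 24007 cells in the whole series. Cells were chosen by measured values of the same library: a cell was taken when it had at least 5000 unique molecular identifiers (UMIs, each a captured RNA molecule), at least 6 of 8 stellate genes (Reln, Ecm1, Hgf, Colec11, Pth1r, Rgs5, Angptl6 and Vipr1) and 0 UMIs of Sfrp1, C7, Dpt, Pecam1 and Ptprc, which mark fibroblasts, endothelial cells and leukocytes. By the same rule, 8348 of 10481 cells (79.6%) were taken from the VitA+Col1a1+ gate of DEN+WAD livers. They are called VitA- and VitA+ HSC below. The rule read these 13 genes and the UMI total, so the levels of those genes are descriptions of the choice and were not tested.

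The cells came from male Rosa26mTmG;Col1a1-Cre mice on a C57BL/6J background, which turn from red to green fluorescence once Cre under the Col1a1 promoter has acted. A Col1a1+ cell by sorting is therefore one in which this collagen promoter was active at some time, and all cells of the series share both alleles. DEN+WAD mice were given DEN, a liver carcinogen, at 10 mg/kg by intraperitoneal injection at 2 weeks of age, and from 6 weeks of age a liquid Western diet with ethanol at 3.5% by volume for 5 months. Controls received saline and chow for the same time. The non-parenchymal fraction was freed by digestion of the liver in situ with pronase and collagenase and sorted by ultraviolet-excited VitA signal and green fluorescence, with 1 library per group and the number of mice per library not given. The other 3 libraries were VitA-Col1a1+ chow, VitA+Col1a1+ chow and a library labelled VitA-Col1a1- DEN+WAD. With 1 library per group no difference below has a replicate check, no p-value was computed, and every 95% interval describes counting error alone.

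A quiescent HSC takes up retinol, esterifies it with Lrat and keeps the ester in lipid droplets. On injury HSC can lose these droplets, make collagen and take on contractile proteins such as the actin Acta2, a change known as activation. Loss of VitA signal is for this reason often used as a sign of activation. The comparison asked how HSC of the same liver treatment differed in RNA when they were and were not sorted as VitA+.

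Levels are given as UMIs of a gene per 1000000 UMIs of the group (CPM). The VitA- HSC held 9565440 UMIs in all (median 15330 per cell, range 5154 to 48714) and the VitA+ HSC 117349795 (median 13094.5 per cell, range 5007 to 80850). A count of 0 allows up to 3 UMIs, or 0.314 CPM in VitA- and 0.0256 CPM in VitA+ HSC. The median share of mitochondrial UMIs was 2.57% and 2.73%, and that of ribosomal protein UMIs 10.9% and 9.97%. Of the cell barcodes, 13 were shared by the 2 libraries, among them 3 of cells that met the rule in both. Ratios of a gene between the groups are VitA- over VitA+ unless stated otherwise. Over the 7893 genes outside the rule with a mean of at least 10 CPM, the median log2 ratio was 0.02 and 94.3% of genes lay within 1.5-fold of equality.

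At the edge of the rule, VitA- cells with 6, 7 and 8 stellate genes numbered 25, 55 and 519, and 10 further cells held 5 and were left out. Their Lrat was at 163, 479 and 1367 CPM with 6, 7 and 8 genes and at 42.0 CPM with 5, whereas Acta2 ran from 4289 to 3017 and 523 CPM. Cells just inside and just outside the rule were thus low in Lrat and high in Acta2. In the VitA+ gate 2, 78 and 8268 cells held 6, 7 and 8 genes and 1 cell held 5. A further 19 VitA- and 110 VitA+ cells met every other condition but had fewer than 5000 UMIs.

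Stellate markers that the rule did not use were present in the VitA- HSC. Lrat, the retinol-esterifying enzyme (chr3:82892579-82903973 in GRCm38, minus strand), was at 1227 CPM (1205 to 1250) in VitA- and at 1575 (1567 to 1582) in VitA+ HSC, a ratio of 0.779 (0.765 to 0.794). With each cell thinned to 5000 UMIs it was found in 92.5% of VitA- and 99.4% of VitA+ HSC, and at full depth in 97.7% of VitA- HSC. In Pecam1+ Cdh5+ endothelial cells, taken as a type that should lack it, the thinned share was 5.38% of 186 VitA- gate cells (median 12859 UMIs) and 9.52% of 63 VitA+ gate cells (median 8657), far below the share in VitA- HSC. The transcription factors Lhx2, Hand2 and Tcf21, which are part of HSC identity, stood at 310, 328 and 562 CPM in VitA- HSC and at 397, 365 and 608 CPM in VitA+ HSC. The intermediate filament Des was at 371 and 326 CPM, the PDGF receptor Pdgfrb at 241 and 240, the globin Cygb at 942 and 1029, and the nerve growth factor receptor Ngfr at 170 and 222. The Wnt amplifier Rspo3 (866 and 989 CPM) and the ligand Bmp5 (413 and 512 CPM) were each slightly below the VitA+ level. Colec10, a secreted collectin and the partner of the rule's Colec11, was the furthest apart of these, at 1014 (994 to 1035) against 1839 CPM (1831 to 1847), a ratio of 0.552. Taken over all VitA- HSC, these markers thus did not go against the label of stellate cells. In the 25 cells with 6 rule genes, Colec10 was at 14.4 CPM and Lhx2 at 55.2. Endothelial cells of that gate held Colec10 at 9.35 CPM, so for these 25 the label is less sure. The 8 stellate genes of the rule themselves ran lower in VitA- HSC, for example Reln at 947 against 1206 CPM and Ecm1 at 8399 against 10622 CPM.

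Genes for retinoid storage differed little between the gates. None of 16 measured genes of retinoid storage and metabolism was 2-fold apart, their median log2 ratio was -0.14, and 10 of 16 lay below 0. Over all 7893 genes 1.81% were 2-fold higher and 0.253% lower, so a count of 0 in a list of this size is near the general share. Summed over the list, VitA- HSC held 5295 CPM and VitA+ HSC 6317 CPM, a log2 ratio of -0.25 (-0.27 to -0.24). Plin2, a coat protein of lipid droplets, was at 213 and 322 CPM. Cell by cell at 5000 UMIs, the list gave a median of 27 UMIs (10th to 90th percentile 17 to 37) in VitA- and 31 (23 to 41) in VitA+ HSC, and 29.7% of VitA- HSC lay above the VitA+ median. The distributions overlapped widely, so VitA- HSC as a group were not without the RNA of retinoid storage.

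Against this similar background, genes at higher level in VitA- HSC were far more numerous than genes at lower level. Of 7893 genes, 143 were at least 2-fold higher (1.81%) and 20 at least 2-fold lower (0.253%). These counts describe 2 libraries, not a number of changed genes. The 12 highest ratios belonged to genes that a minority of VitA- HSC carried, from 9.35% of cells for Aspn to 47.9% for Ccl19. Among genes with a mean of at least 20 CPM, the small proteoglycan Aspn led with 45.6 (41.4 to 50.1) against 0.503 CPM (0.383 to 0.649). Next came the matricellular protein Nov at 43.6 against 0.631 CPM, the matrix calcification inhibitor Mgp at 42.3 against 0.733, the epoxide hydrolase Ephx3 at 43.2 against 1.09, the transcription factor Ebf1 at 65.0 against 2.13 and the calcium-binding protein S100a6 at 398 against 14.6 CPM. Gpx3, an extracellular glutathione peroxidase, Gas6, Acta2, Ccl19, Lmcd1 and Lmod1 completed the 12 highest, with ratios from 16.6 to 10.2. Ccl19 shares its sequence with near-identical copies in this genome and its value is uncertain. The 30 VitA- HSC (5%) with the most Aspn UMIs held 81.7% of them, and the same number of cells held 69.8% of Acta2 UMIs and 95.4% of Igfbp5 UMIs. A mean over the group did not describe a typical cell for these genes, and the cells were next divided by the genes they carried.

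**Figure D1:**
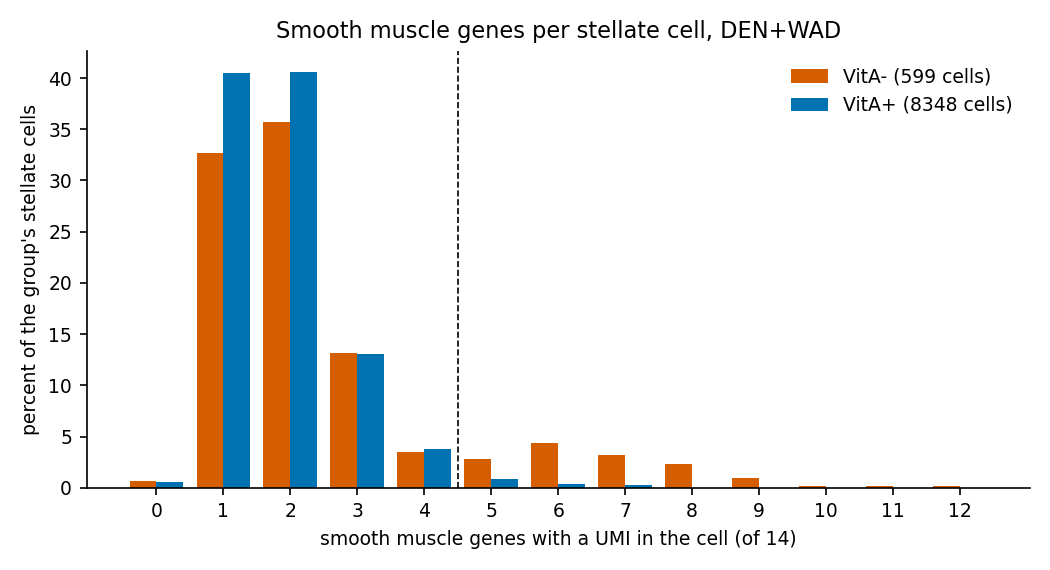
Number of 14 smooth muscle genes with at least 1 UMI per cell (x axis) against the percent of each group's stellate cells (y axis), for VitA- (orange) and VitA+ (blue) HSC of DEN+WAD liver. Most cells of both groups held 1 or 2 of these genes, and right of the dashed line, at 5 or more, lay 14.2% of VitA- and 1.53% of VitA+ HSC.

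A first subset carried genes of smooth muscle. Counting 14 such genes (Myh11, Cnn1, Actg2, Mustn1, Pln, Rergl, Notch3, Mcam, Lmod1, Synpo2, Ldb3, Casq2, Kcnmb1 and Cspg4; Acta2 and Tagln not among them), 85 VitA- HSC had 5 or more (14.2%, 11.5 to 17.2%) and 128 VitA+ HSC did (1.53%, 1.28 to 1.82%). Thinned to 5000 UMIs per cell, 4 or more were found in 11.5% of VitA- (9.07 to 14.4%) and 1.15% of VitA+ HSC (0.932 to 1.40%). The 14 genes and the number 5 were chosen after the values were seen, so the levels of these genes in the subset are part of its definition. These cells had a median of 18940 UMIs, against 14976.5 in the other VitA- HSC, and 42 of 85 held all 8 stellate genes, against 477 of 514.

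Acta2, the smooth muscle actin used as the mark of HSC activation (chr19:34241090-34255590 in GRCm38, minus strand), was at 933 CPM (913 to 952) in VitA- and at 73.2 (71.7 to 74.8) in VitA+ HSC, a ratio of 12.7 (12.4 to 13.1). The 85 cells held 96.6% of its UMIs in VitA- HSC, at 4878 CPM (4776 to 4983). In the 443 VitA- HSC that belonged to neither subset described here it was at 41.0 CPM (36.3 to 46.2), and in 8069 such VitA+ HSC at 32.8 CPM (31.8 to 33.9). Acta2 was found in 96.5% of the 85 cells and in 15.6% of the 443. The difference between the gates in Acta2 thus came down to 1.25-fold (1.10 to 1.41) once both subsets were set aside. With only the smooth muscle-gene cells set aside, its log2 ratio was 0.18. Endothelial cells of the VitA- library carried Acta2 at 8.53 CPM.

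The same cells were low in stellate genes but not without them. Lrat was at 380 CPM (352 to 410) in the 85 cells and at 1485 (1456 to 1514) in the 443, and 85.9% of the 85 carried it. Colec10 was at 301 against 1291 CPM, Rspo3 at 105 against 1064 and Reln, a rule gene, at 295 against 1101 CPM. Vtn, the adhesive glycoprotein vitronectin, stood at 1046 against 78.2 CPM, S100a6 at 2002 against 24.3, Ebf1 at 346 against 1.34 and Thy1, a surface protein used as a portal fibroblast marker, at 39.6 against 0.299 CPM. Col1a1, the chain of type I collagen that also drives the reporter, was at 1044 CPM (997 to 1093) against 219 (208 to 230). VitA+ HSC with 5 or more smooth muscle genes differed from the rest of their gate in the same order for Acta2 (1948 against 32.8 CPM), S100a6 (190 against 9.31) and Lrat (993 against 1591), but held more Lrat than those of the VitA- gate. Whether these cells were 1 cell type, or droplets that held a stellate and a smooth muscle cell, was not tested, since no doublet caller was run.

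Genes of contraction are commonly driven by serum response factor, which binds the CArG box (the letters CC, a run of A and T, then GG). The promoters of 3 genes at least 2-fold higher in VitA- HSC are shown because they differ in how closely they match it. Each is the run of 250 bases upstream of the RefSeq start in GRCm38.p6, read 5′ to 3′ on the strand of the gene, with capitals marking CArG matches that allow at most 1 other base among the inner letters. Acta2 lies at chr19:34255374-34255623 on the minus strand, Myl9 at chr2:156775214-156775463 on the plus strand and Lmcd1 at chr6:112273508-112273757 on the plus strand.
Acta2: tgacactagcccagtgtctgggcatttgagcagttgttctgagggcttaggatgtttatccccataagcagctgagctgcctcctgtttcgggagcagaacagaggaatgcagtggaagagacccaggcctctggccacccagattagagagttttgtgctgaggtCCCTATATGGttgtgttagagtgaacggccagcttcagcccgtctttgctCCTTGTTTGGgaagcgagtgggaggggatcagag
Myl9: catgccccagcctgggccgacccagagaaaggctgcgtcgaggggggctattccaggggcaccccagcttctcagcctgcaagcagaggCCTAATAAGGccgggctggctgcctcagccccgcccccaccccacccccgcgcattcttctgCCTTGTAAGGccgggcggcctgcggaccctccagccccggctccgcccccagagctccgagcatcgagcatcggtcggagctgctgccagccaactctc
Lmcd1: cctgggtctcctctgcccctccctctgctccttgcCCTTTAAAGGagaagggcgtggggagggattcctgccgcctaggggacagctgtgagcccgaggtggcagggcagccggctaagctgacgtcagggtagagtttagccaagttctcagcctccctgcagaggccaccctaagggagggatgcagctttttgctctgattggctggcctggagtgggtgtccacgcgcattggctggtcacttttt
The Acta2 window held 2 near matches, beginning 84 and 34 bases before the start, and no full match. Myl9, the regulatory light chain of smooth muscle myosin, held a full match 161 bases and a near match 99 bases before the start, and Lmcd1, a LIM-domain protein of muscle, a full match 215 bases before it. Of other 2-fold higher genes looked at, Fhl2 held full and Crip1 near matches. Lmod1, Tpm2, Notch3, S100a6 and Ebf1 held none, even with 1 other base allowed. Full matches on either strand, which the pattern reads alike, stood in 482 of 32851 windows of this length (1.47%). Counted by gene, with a match in any of its windows, they stood in 88 of 6218 genes tested (1.42%). They stood in 7 of 104 genes 2-fold higher in VitA- HSC (6.73%) and in 0 of 15 genes 2-fold lower. With 1 other inner base allowed, the shares were 8.59% of all windows, 9.07% of genes tested and 12.5% of genes 2-fold higher. A match of letters is a description of the window and no evidence of binding.

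Contractile genes as a list followed Acta2. Of 25 measured, 8 were at least 2-fold higher in VitA- HSC and 0 lower, with a median log2 ratio of 0.67. Beside Acta2 these were the actin Actg2 (19.9 against 0.827 CPM), the myosin heavy chain Myh11 (120 against 27.1), Lmod1 (66.6 against 6.52), Myl9 (411 against 144), Tagln (1625 against 596), Tpm2 (156 against 61.3) and the LIM protein Crip1. Among the 443 and 8069 cells outside both subsets, 0 of 22 were 2-fold apart, the median was 0.06 and the log2 ratio of the summed list was 0.02 (0.01 to 0.03). This list shares Myh11, Cnn1, Actg2, Lmod1 and Synpo2 with the 14 genes that defined the cells left out, so its fall outside the subsets is in part fixed by that choice. Of 8 measured smooth muscle markers, 4 were 2-fold higher over all cells, and since nearly all of that list defined the subset, its values outside it are no result. The medians over cells at 5000 UMIs, 39 contractile UMIs in VitA- and 35 in VitA+ HSC, were close, while the 90th percentiles were 112 and 55.

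A second subset carried Wt1, a transcription factor of the mesothelium and of embryonic liver mesenchyme (chr2:105126529-105173616 in GRCm38, plus strand). It was found in 72 VitA- HSC (12.02%, 9.52 to 14.9%) and in 153 VitA+ HSC (1.83%, 1.56 to 2.14%), and after thinning in 6.34% and 0.934%. In endothelial cells of the same libraries the thinned shares were 0.538% and 0%. Only 1 of the 72 and 2 of the 153 also had 5 or more smooth muscle genes, so the subsets were nearly separate. The 72 cells had a median of 14700 UMIs, and the other VitA- HSC 15396. A cell counts here only if a Wt1 UMI was captured, so cells with little Wt1 remain among the rest.

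The Wt1 cells shared other genes that the choice did not use. Of the 72 VitA- cells, 61 (84.7%) also carried Fam180a, and of the 153 VitA+ cells 78 (51.0%) did. Over all cells of the rule, Fam180a was found in 193 of 599 VitA- and 517 of 8348 VitA+ HSC. Of these Fam180a cells, 31.6% and 15.1% carried Wt1. In the 71 VitA- cells with Wt1 and fewer than 5 smooth muscle genes, Alcam, an adhesion molecule of the mesothelial and mesenchymal lineage, was at 768 CPM (717 to 822), against 72.4 (66.1 to 79.1) in the 443 rest. Fam180a was at 286 against 42.1 CPM, the actin-severing protein Gsn at 2077 against 566, the complement component C4b at 726 against 185, the matrix protein Smoc2 at 378 against 87.0 and the chloride channel protein Clic5 at 97.5 against 6.71 CPM. Col1a1 was at 635 (589 to 684) against 219 CPM. Cyp1b1, a cytochrome that the study followed (chr17:79701537-79715061, minus strand), was at 45.6 CPM (33.8 to 60.1) against 4.63 (3.14 to 6.57), with endothelial cells of that library at 8.53 CPM. Lrat was at 1018 against 1485 CPM and was found in 98.6% of these cells. Rgs4, a regulator of G protein signalling, was lower, at 21.0 against 296 CPM, as were Epor and Itgb3, both at 5.47 CPM against 38.4 and 48.2.

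In the VitA+ gate, 151 Wt1 cells stood in the same order to their 8069 rest for Alcam (383 against 36.1 CPM), Fam180a (100.02 against 5.18), Cyp1b1 (27.1 against 0.782), Gsn (804 against 176) and Rgs4 (179 against 472). The mesothelial genes Msln and Gpm6a were at 0 UMIs and Upk3b at 0 in the VitA- Wt1 cells, and Acta2 was at 22.8 CPM. In 592 cells of the VitA- library that held fibroblast genes, Wt1 was at 24.0 CPM, Alcam at 161, Fam180a at 306, Gsn at 9293 and Mgp at 3269 CPM. Alcam and Wt1 were thus higher in the Wt1 HSC, where Wt1 is part of the choice, than in these fibroblast-gene cells, and Gsn and Mgp lower.

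**Figure D2:**
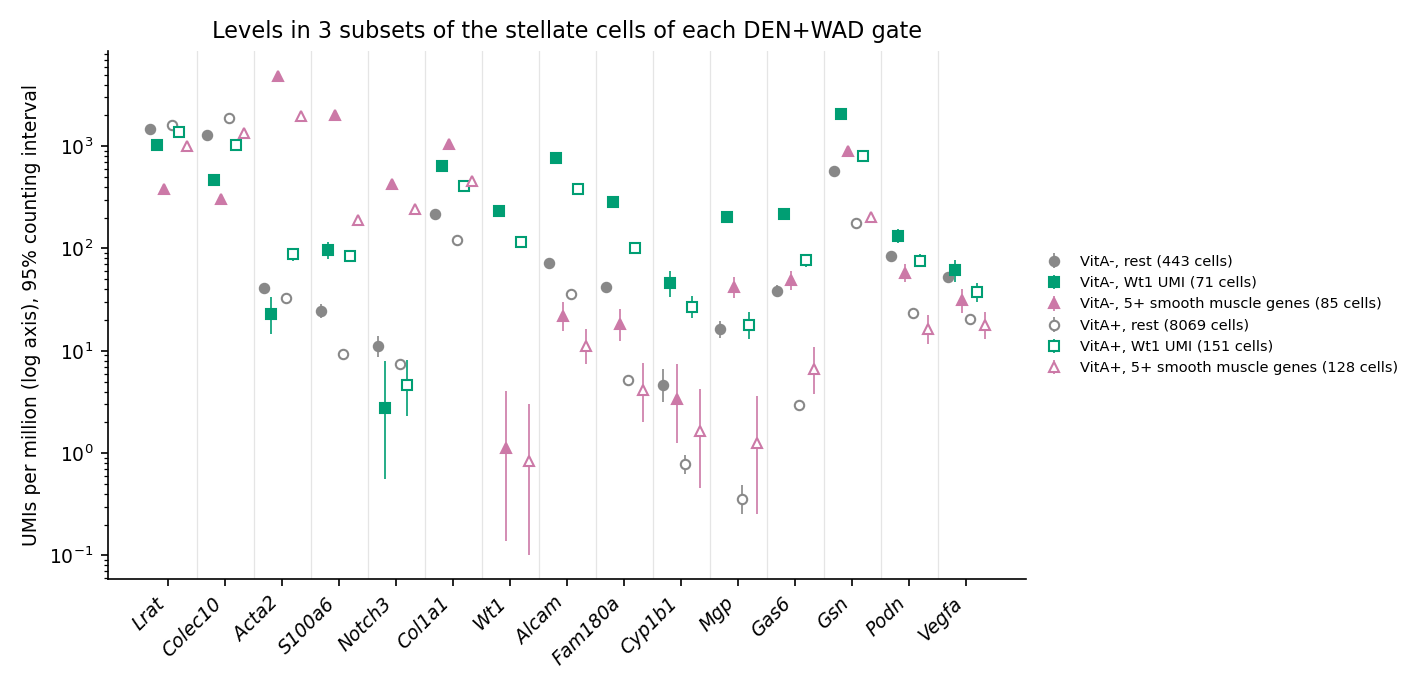
Levels of 15 genes (x axis) in UMIs per 1000000 on a log axis (y axis), with 95% counting intervals, for cells with 5 or more smooth muscle genes (triangles), cells with a Wt1 UMI (squares) and the rest (circles) of VitA- (filled) and VitA+ (open) HSC. Acta2 stood at 4878 in the VitA- cells with smooth muscle genes and at 41.0 in the rest, Alcam at 768 in the Wt1 cells and at 72.4 in the rest, and levels of 0 are not drawn.

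Without the cells with smooth muscle genes, 79 of 7815 genes (1.01%) were 2-fold higher in VitA- HSC, of which 69 were among the 143, and 16 were lower (0.205%), of which 12 were among the 20. Without the Wt1 cells as well, 60 of 7796 (0.77%) were higher, 54 of them among the 143, and 13 lower (0.167%), 10 of them among the 20. Of the 143 genes, 39 had fewer than 10 CPM once the first subset was set aside. In the 443 remaining VitA- HSC Lrat was at 1485 against 1591 CPM (log2 ratio -0.10, -0.13 to -0.07) and Des at 324 against 322 CPM. Colec10 was at 1291 against 1867 CPM and Ntm, an adhesion molecule, at 274 against 471.

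**Figure D3:**
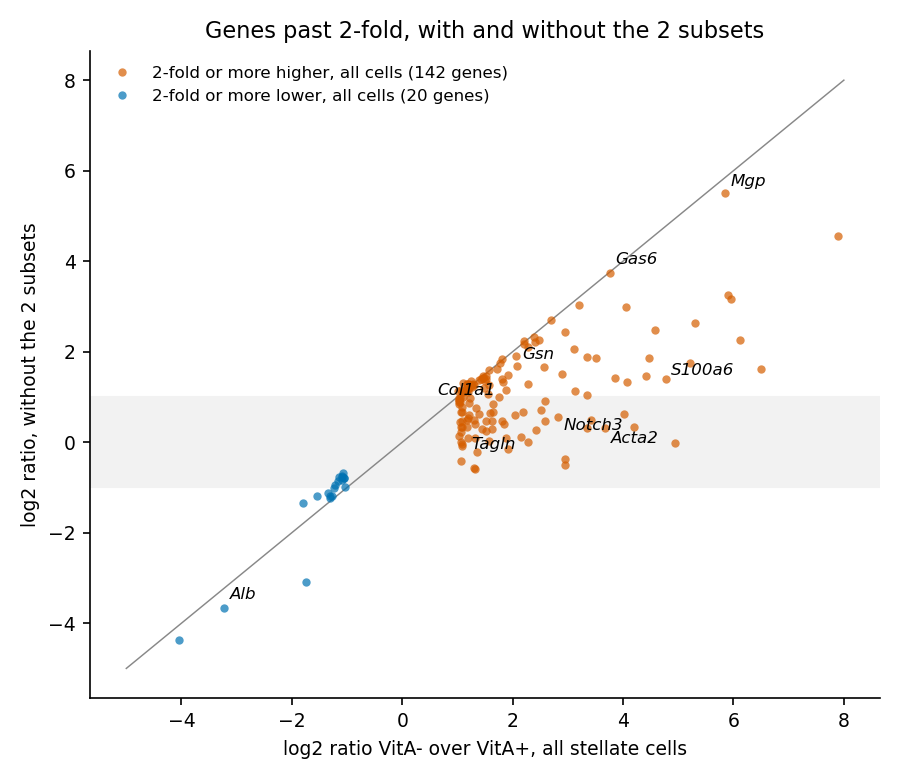
Log2 ratio of VitA- over VitA+ HSC in all cells (x axis) against the log2 ratio without the cells of both subsets (y axis) for genes at least 2-fold higher (orange, 142 drawn) or lower (blue, 20). Grey marks ratios under 2-fold and the line equality. Acta2 (3.67 to 0.32) fell into the grey band, whereas Gas6 (3.76 to 3.73) and Gsn (2.08 to 1.69) stayed near the line.

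Genes that remained apart outside both subsets included Gas6, Gsn, Ogn, Podn and Vegfa, named after their values were seen. Gas6, the ligand of the Axl and Mer receptors (chr8:13465374-13494490, minus strand), was at 60.9 CPM (56.1 to 66.1) in all VitA- and 4.51 (4.13 to 4.91) in all VitA+ HSC. In the remaining cells it was at 38.8 (34.2 to 43.8) and 2.92 CPM (2.62 to 3.26), a ratio of 13.3 (11.2 to 15.7). Gsn was at 566 and 176 CPM there (ratio 3.22, 3.11 to 3.33) and was found in 95.7% and 73.2% of cells. Fam180a was at 42.1 and 5.18 CPM, the leucine-rich proteoglycans Ogn and Podn at 55.2 and 14.7 and at 83.6 and 23.3, and the angiogenic factor Vegfa at 52.7 and 20.6 CPM. Adamtsl2, which binds microfibrils, was at 193 and 79.1 CPM and the matrix protein Spon2 at 168 and 69.3. Col1a1 remained higher at 219 against 122 CPM, a ratio of 1.79 (1.70 to 1.89), whereas Col1a2, the other chain of type I collagen, was at 417 against 453 CPM.

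RNA that leaks into every droplet bears on these values, and the endothelial cells of the same libraries show its size. Podn was found in 0.538% of thinned VitA- gate endothelial cells, Ogn in 1.61%, Col1a1 in 4.84%, Fam180a in 2.15% and Adamtsl2 in 4.84%, at 1.63, 2.44, 10.2, 5.28 and 12.2 CPM, all below the levels of the 443 VitA- HSC. Gsn was at 58.5 CPM there, below 566 in the HSC. Mgp was found in 12.9% of these endothelial cells and in 9.18% of VitA- HSC. It stood at 21.1 CPM in the former, at 16.3 CPM in the 443 and at 0.355 CPM in the remaining VitA+ HSC. Outside the subsets it was thus not above the endothelial level, and the part of free RNA in it was not tested. Gas6 and Vegfa were at 373 and 54.4 CPM in endothelial cells of the VitA- gate and at 221 and 28.5 CPM in those of the VitA+ gate. Since the endothelial level of both was above or near that of the HSC, these cells gave no background for them. The fibroblast-gene cells of the VitA- library held Gas6 at 2450 CPM, and the part of free RNA in the Gas6 of VitA- HSC was not tested. Cdh5, which defines the endothelial cells, was at 785 CPM in them and at 1.25 CPM in VitA- HSC.

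Some differences were as large among the other cells of the libraries. Of the 143 genes, 26 (18.2%) were also at least 2-fold higher between the 2130 and 2133 cells of the libraries that did not meet the rule, at levels within 1.5-fold of those in HSC of the same library, and so were 3 of the 20 lower genes. Gstp1, a glutathione transferase, was at about the same level in VitA- HSC and the other cells of that library, 120.2 and 120.5 CPM, and at 18.5 and 17.9 CPM in the VitA+ library. Nme2, Ccdc85b, Erh and Grcc10 met the same condition, and so did Ackr1, Cxcl2 and Kcnk2 among the lower genes. Notch3 and Actg2 met it too, but stood mainly in the cells with smooth muscle genes, with Notch3 at 427 CPM in these and at 11.04 CPM in the 443. Many of the other cells also carried stellate genes: 1652 VitA- gate and 10017 VitA+ gate cells with 5000 UMIs held 6 or more of the 8, members included. Alike levels in the other cells therefore do not place a difference outside stellate cells, and gate and library cannot be told apart.

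The sum of collagen chains stood higher in VitA- HSC over all cells and not outside the subsets. Of 16 collagen chains, 3 were 2-fold higher and 0 lower in VitA- HSC, the median log2 ratio was 0.54 and that of the sum 0.26 (0.25 to 0.27). Col1a1 (chr11:94936224-94953042, plus strand) was at 419 CPM (406 to 432) against 135 (133 to 137), Col18a1, the source of endostatin, at 35.3 against 4.57 and Col8a1 at 30.0 against 10.5 CPM. Col3a1 was at 1353 against 821 and Col1a2 at 609 against 466 CPM. Outside the subsets 0 of 14 chains were 2-fold apart and the sign of the sum turned, to -0.06 (-0.08 to -0.04). There 6 of 14 chains lay above 0 and 8 below, with Col1a1 still at 219 against 122 CPM and Col3a1 at 929 against 792. At 5000 UMIs per cell the medians were 24 collagen UMIs in VitA- and 25 in VitA+ HSC, with a 90th percentile of 48 and 39. The typical VitA- HSC therefore held no more collagen RNA than the typical VitA+ HSC.

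Matrix glycoproteins and proteoglycans gave 7 of 29 genes 2-fold higher and 0 lower, with a median of 0.25, although their summed log2 ratio was -0.11 (-0.12 to -0.11). Beside Aspn these were Ogn (68.6 against 16.4 CPM), elastin Eln (54.0 against 15.3), Podn (84.5 against 24.3), Spon2 (163 against 72.2), Tnc and Lama2. Of 23 matrix proteases, crosslinkers and inhibitors, 3 were higher, the serine proteases Htra1 (124 against 40.3 CPM) and Htra3 (77.3 against 33.8) and the metalloproteinase Mmp23 (74.6 against 32.1), and 1 was lower, the inhibitor Timp1 (19.8 against 47.7). Outside the subsets, 4 of 28 and 1 of 23 genes of these lists were higher and 0 and 1 lower.

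Among signalling genes a few ligands were past 2-fold, where 1.81% of all genes were 2-fold higher and 0.253% lower. Of 23 TGF-beta and PDGF pathway genes 2 were higher, Tgfb2 (112 against 29.6 CPM) and Tgfb3 (40.5 against 8.30), with a median of 0.08, and outside the subsets 0 of 22. Of 17 Hippo pathway genes 3 were higher, Ctgf (612 against 273 CPM), Ankrd1 (38.9 against 5.06) and Tgfb2, with a median of 0.29, and outside the subsets 0 of 16. Ankrd1 turned sign there, to -0.51, and Tgfb2 to -0.16. Of 23 growth factors 4 were higher, Gas6, Vegfa, Igf1 (19.9 against 7.18 CPM) and the IGF-binding Igfbp5 (36.7 against 0.153), with a median of 0.04. Of 22 chemokines and acute-phase genes 1 was higher (Tnfaip6, 45.3 against 15.2 CPM) and 1 lower (Cxcl2, 25.5 against 62.9), with a median of -0.24. The chemokine Ccl19, whose value is uncertain, was not counted in this list. It stood at 199 against 17.6 CPM over all cells and at 55.7 against 15.3 CPM outside the subsets. Among 22 stellate transcription factors, Wt1 (27.0 against 2.37 CPM) and Nr4a2 (64.7 against 22.7) were higher and the median was 0.11. Of 27 stellate identity genes outside the rule, Vtn (249 against 54.5 CPM), Gpc3 (23.9 against 6.53) and Adamtsl2 (192 against 82.6) were higher, the adhesion molecule Ntm (222 against 464) was lower and the median was -0.31. Outside the subsets, 3 of 22 growth factors, 1 of 22 chemokines and acute-phase genes, 1 of 20 transcription factors and 1 of 26 identity genes were higher. Lower there were 2 of the chemokines and acute-phase genes and 0 of the others.

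The lists of immediate-early, interferon and vasoactive receptor genes held no member 2-fold apart, although genes outside these lists, such as Arc, Oas1a and Epor, were. With 1.81% of all genes 2-fold higher and 0.253% lower, counts of 0 in lists of this size are near the general share. Of 36 immediate-early and heat-shock genes, which respond to digestion and sorting, 0 were 2-fold apart, the median log2 ratio was -0.06 and that of the sum -0.10 (-0.11 to -0.10). Jun was at 5332 against 6133 CPM and Fos at 4048 against 4479. Of 29 interferon response genes 0 were 2-fold apart, with a median of -0.21 and 25 below 0, such as B2m at 5425 against 6281 CPM. Of 18 vasoactive and hormone receptors, through which HSC sense angiotensin, endothelin and glucagon, 0 were 2-fold apart, with a median of -0.23. Ramp1, a subunit of the CGRP receptor, was at 715 against 1159 CPM and Calcrl, its partner, at 264 against 429. Of 16 p53 and senescence genes 1 was higher (Cdkn1c, 41.4 against 20.3 CPM), and Cdkn1a was at 237 against 145. Of the cycling genes 1 of 16 reached 10 CPM (Pcna, 38.6 against 26.5).

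**Figure D4:**
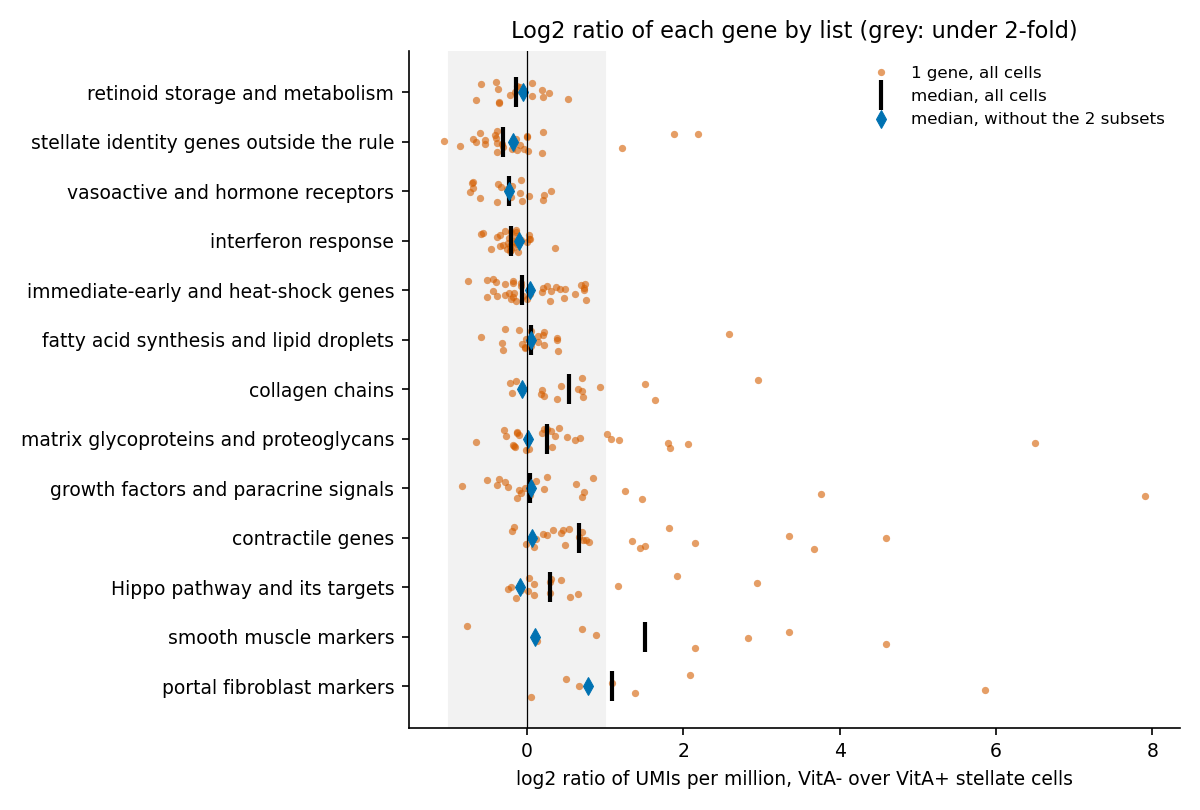
Log2 ratio of VitA- over VitA+ HSC (x axis) for each measured gene of 13 lists (y axis; points), with the median over all cells (black bar) and the median without the cells of both subsets (blue diamond). Grey marks ratios under 2-fold. Retinoid, receptor and interferon genes lay inside the grey band, and the contractile median, which rests in part on genes that define the cells left out, moved from 0.67 to 0.06.

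The genes that the study followed in its analysis of lipid mediators and tumour promotion were then read in these cells. Of 6 tumour promoter genes, all were above 0 on the log2 scale and 3 past 2-fold: Gas6 (ratio 13.5), Vegfa (49.7 against 20.8 CPM, 2.38) and Mmp23 (2.33). Mmp2, a gelatinase, was at 91.4 against 52.1 CPM, the EGF receptor ligand Ereg at 31.2 against 18.8 and the hyaluronan receptor Cd44 at 28.1 against 22.5. Outside the subsets 2 of the 6 were past 2-fold and 5 above 0. Mmp23 was at 43.7 against 28.9 CPM there, and Cd44 turned, at 17.0 against 21.4. Cyp1b1 was at 9.10 CPM (7.28 to 11.2) against 1.34 (1.14 to 1.56), a ratio of 6.80 (5.17 to 8.89), and was found in 3.84% of thinned VitA- and 0.563% of VitA+ HSC. Endothelial cells of the VitA- library gave 1.08% of thinned cells and 8.53 CPM, on 21 UMIs in 2.15% of 186 cells at full depth. So few cells carried these UMIs that they gave no level of background for Cyp1b1. The fibroblast-gene cells of the VitA- library held it at 77.2 CPM, and the part of free RNA was not tested. The desaturases Scd1 and Scd2 were at 15.4 against 11.7 and at 49.0 against 60.9 CPM, and of 20 genes of fatty acid synthesis and lipid droplets 1 was higher, the carrier Fabp5 (31.2 against 5.19 CPM). Outside the subsets 0 of 19 genes of this list were 2-fold apart, with Fabp5 at 8.66 against 4.58 CPM. The cyclooxygenases Ptgs1 and Ptgs2 were low in both groups, at 2.93 against 2.41 and 3.87 against 3.89 CPM. Tbxas1 gave 1 UMI in VitA- and 9 in VitA+ HSC and Cyp1a1 2 and 4, too few for a comparison. Of 9 measured prostanoid and aryl hydrocarbon genes, 1 was higher, the prostaglandin dehydrogenase Hpgd (15.7 against 4.51 CPM).

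Markers of other liver cells were mostly low. Cells with a UMI of Sfrp1, C7, Dpt, Pecam1 or Ptprc had been left out by the rule. Low levels of fibroblast, endothelial and leukocyte markers were thus in part fixed by that choice. Of 7 portal fibroblast markers above 10 CPM, Mgp, Gsn, Clec3b (19.7 against 7.52 CPM) and Smoc2 (118 against 55.8) were 2-fold higher, with a median of 1.08, and the list summed to 1398 CPM in VitA- and 508 CPM in VitA+ HSC. Outside the subsets 1 of 5 was higher and the sums were 1091 and 486 CPM. The defining portal fibroblast markers Thy1 and Fbln2 were at 7.53 against 0.290 CPM and at 0.523 against 0.230 CPM, the latter on 5 and 27 UMIs, and 3 of 22 were at 0 UMIs. Of 3 measured endothelial markers 0 were 2-fold apart, with sums of 346 and 249 CPM over the 20 genes of that list. No macrophage, lymphocyte or cholangiocyte marker reached 10 CPM. Their lists summed to 18.8, 0.836 and 8.99 CPM in VitA- and 12.2, 0.264 and 9.54 CPM in VitA+ HSC, with 10 of 21, 13 of 16 and 5 of 12 markers at 0 UMIs in VitA- HSC. The part of such RNA in the ratios above was not tested.

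Few genes were lower in VitA- HSC. Among them were the hepatocyte genes Apoa1 (2.51 against 41.6 CPM), Alb (6.59 against 61.5) and Ahsg (5.12 against 17.2), 3 of 5 measured hepatocyte markers, while the whole list summed to 523 and 565 CPM. In VitA+ HSC the 417 cells with the most held all UMIs of each, with up to 6823 Alb UMIs in 1 cell, and without the 5% of each group with the most UMIs the sign turned, to 1.07 for Alb, 1.19 for Apoa1 and 3.20 for Ahsg. Of genes spread over more cells, the membrane protein Disp2 was at 14.1 against 48.9 CPM, the erythropoietin receptor Epor at 29.4 (26.0 to 33.0) against 85.6 (83.9 to 87.3) and found in 27.2% against 59.1% of cells. Timp1, the elastase Cela1 (28.3 against 65.6 CPM), the mechanosensitive channel Piezo2 (23.2 against 51.2), the integrin Itgb3 (37.2 against 79.3) and the complement component C6 (84.2 against 179) made up the rest of the lowest 12 beside Kcnk2, Cxcl2 and Ackr1. Outside the subsets Epor stayed at 38.4 against 87.4 CPM (log2 ratio -1.19, -1.37 to -1.01), Disp2 at 19.8 against 50.4 and Timp1 at 19.7 against 45.03, whereas Itgb3 was at 48.2 against 80.4 CPM.

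The same rule took 48 of 668 cells (7.19%) from VitA-Col1a1+ chow and 210 of 259 (81.1%) from VitA+Col1a1+ chow. In chow 29 of the 48 VitA- cells (60.4%, 45.3 to 74.2%) and 5 of the 210 VitA+ cells (2.38%, 0.778 to 5.47%) had 5 or more smooth muscle genes, and 2 and 1 cells had a Wt1 UMI. Acta2 was at 1499 and 7.07 CPM, Col1a1 at 626 and 85.1, Lrat at 994 and 1994 and Gas6 at 50.8 and 5.70 CPM in VitA- and VitA+ chow cells. The order of the gates in these 4 genes was thus the same with chow as with DEN+WAD, on 48 cells and a composition richer in smooth muscle genes. Between the VitA- gates, DEN+WAD cells had the lower share of smooth muscle-gene cells and the lower Acta2, 933 against 1499 CPM, and treatment cannot be told apart from the single libraries. In the library labelled VitA-Col1a1- DEN+WAD, 1388 of 9870 cells (14.1%) met the rule and 689 of them (49.6%, 47.0 to 52.3%) had 5 or more smooth muscle genes. Col1a1 was at 1244 CPM there, above 419 CPM in VitA-Col1a1+ HSC, which goes against its label. Lrat was at 1034 CPM, Acta2 at 2494, Gas6 at 27.1 and Gsn at 182 CPM.

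**Figure D5:**
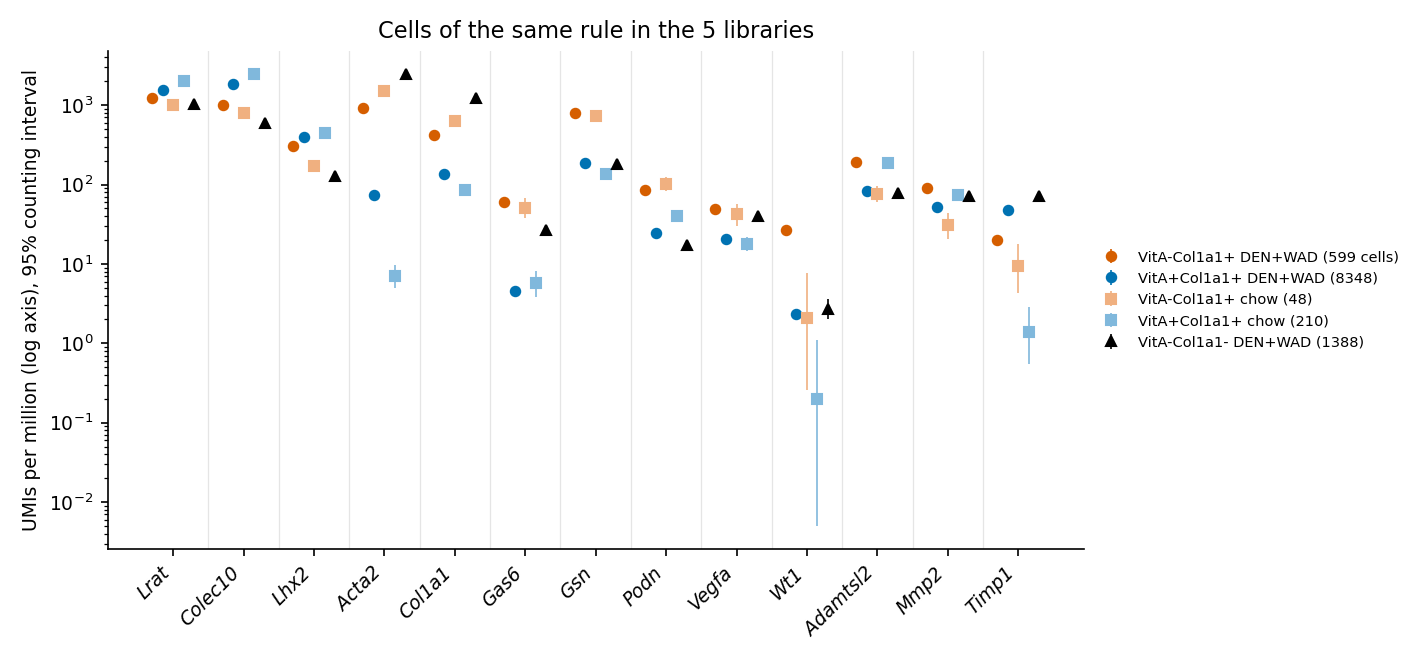
Levels of 13 genes (x axis) in UMIs per 1000000 on a log axis (y axis), with 95% counting intervals, in cells of the same rule from the 5 libraries. Circles are DEN+WAD Col1a1+ gates, squares chow, and the triangle the library labelled VitA-Col1a1-. Lrat lay between 994 and 1994 in all 5, whereas Acta2 ran from 7.07 in VitA+ chow to 2494 in the library labelled VitA-Col1a1-.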

How the data were processed

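RNA of single sorted liver cells was counted after droplet capture (10x Genomics, 3′ kit; the sources name both v3.1 and v2). Per the labels and file headers, the authors aligned reads to mm10 and counted UMIs with Cell Ranger 3.1.0 for the Col1a1+ gates, while version 6.1.2 stands in the file of the VitA-Col1a1- gate. What they deposited are unnormalized UMI counts of 31053 genes, in 5 libraries of 1 group each. Groups were taken from the labels alone, and cells were never used as replicates.

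The stellate cells and gene lists were chosen with earlier results of these data known. UMIs were summed over the cells of a group and scaled to 1000000 (CPM). Levels carry exact Poisson 95% intervals, ratios exact conditional binomial intervals and shares Clopper-Pearson intervals. A gene counted as past 2-fold when the mean CPM of both groups was at least 10. A count of 0 was given a floor of 3 UMIs. Shares were also taken after thinning each cell to 5000 UMIs (seed 7). Molecules of 1 cell are not independent samples of a condition, so intervals cover counting error only. No doublet caller was run. Endothelial cells for background had at least 2 Pecam1 UMIs, at least 1 Cdh5 UMI and at most 2 of the 8 stellate genes.

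Named genes were 22 genes fixed from the study, up to 4 per list at least 2-fold apart (else the 2 most abundant), and the 12 highest and 12 lowest ratios at a mean of at least 20 CPM; genes of the subsets were chosen after their values were seen. Positions are those of GENCODE M21 on GRCm38, and promoters those of RefSeq (GRCm38.p6). Python 3.11.15, numpy 2.4.6, scipy 1.17.1, pandas 2.3.3 and matplotlib 3.10.9 were used, with TMM factors from edgeR 4.0.16 in R 4.3.3. The counting was tested on simulated data. Alternatives covered scaling, weighting of cells, depth, marker number, exclusion genes, cells of highest UMIs and the filter on low values, and 4 were added after seeing the data. Values of some genes are not reported here.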

Additional observations from a re-analysis of the deposited data

Results flagged for a closer look

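For 7 genes the VitA- over VitA+ ratio had opposite signs in chow and in DEN+WAD, with both counting intervals excluding 0. The log2 ratios in chow and DEN+WAD were -1.26 and 1.22 for Adamtsl2, -1.04 and 1.19 for Htra3, -1.26 and 0.81 for Mmp2 and -0.43 and 1.08 for Smoc2. They were -5.37 and 2.94 for Ankrd1, -7.09 and 0.60 for Spp1 and 2.79 and -1.27 for Timp1. Each ratio compares 1 library with 1 library, chow VitA- HSC numbered 48, Ankrd1 and Spp1 each rested on 1 UMI there and Timp1 on 9, and the difference between the ratios was not tested. In chow, 60.4% of VitA- and 2.38% of VitA+ HSC had 5 or more smooth muscle genes. Without such cells Adamtsl2 was at 189.7 and 190.1 CPM in chow VitA- and VitA+ HSC, so its lower level in VitA- HSC was not seen there. The part of cell composition in the other ratios was not tested.

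In the library labelled VitA-Col1a1-, which entered no comparison of the gates, 1388 cells met the stellate rule. Col1a1 was at 1244 CPM in them, which goes against the label.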

How the results depend on the processing

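With 143 genes higher and 20 lower, a log2 ratio of -0.36 for Lrat, -0.25 for retinoid genes, 0.26 for collagens and -0.10 for immediate-early genes as reported, the values moved as follows. TMM factors gave -0.43, -0.32, 0.19 and -0.17 for these 4 ratios, the mean over cells -0.31, -0.24, 0.17 and -0.10, and thinned cells -0.30, -0.23, 0.18 and -0.10. At 10000 UMIs per cell the immediate-early ratio was -0.11. All 8 markers left 80 higher and 11 lower genes and ratios of -0.21, -0.18, 0.11 and -0.057. With 6 more genes at 0 UMIs, 88 were higher and the ratios were -0.14, -0.15, -0.024 (a change of sign) and -0.11. Without the 5% of cells with the most UMIs the ratios were -0.31, -0.24, 0.079 and -0.10. No filter on low values gave 2131 higher and 384 lower genes, and a mean of 50 CPM 42 and 5. In alternatives chosen after seeing the data, leaving out cells with 5 or more smooth muscle genes gave 79 higher genes and ratios of -0.16, -0.16, -0.042 and -0.052. Leaving out Wt1 cells too gave 60 and 13 genes and -0.10, -0.14, -0.060 and -0.024, so collagen changed sign in both. Of named genes, Ahsg turned to 0.52 (mean over cells), 0.16 (thinned), 1.99 (all 8 markers) and 3.20 (without the top 5%), Krt8 to 0.13 (mean over cells), 0.61 (all 8 markers) and 1.60 (without the top 5%), Alb to 0.87 and 1.07 and Apoa1 to 1.05 and 1.19 under the last 2. Ankrd1 turned to -0.20 with 6 more genes at 0, and without smooth muscle-gene cells Ankrd1 turned to -0.72, Col18a1 to -0.077, Ebf1 to -0.054, Myh11 to -0.063 and Tgfb2 to -0.14. Without Wt1 cells as well, Ankrd1 was at -0.51, Col18a1 at -0.37, Ebf1 at -0.0081 and Tgfb2 at -0.16. Why these values moved was not tested beyond the cells each alternative leaves out. Of 63 named genes past 2-fold, 62 stayed so under TMM factors, 44 without the smooth muscle-gene cells and 36 of 62 without both subsets. No paired analysis was possible because each group was 1 library. Depth limits genes near 0.314 CPM in VitA- HSC, and 1 library per group limits every ratio.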

Other observations

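HSC differ along the lobule, and genes known for HSC near the central vein and near the portal tract were read in a list added after the data were seen. Of 5 central genes, Podn (84.5 against 24.3 CPM), Adamtsl2 (192 against 82.6) and Spon2 (163 against 72.2) were at least 2-fold higher in VitA- than in VitA+ HSC. Loxl1 was at 68.1 against 34.1 CPM and Rspo3 at 866 against 989. Without the cells with 5 or more smooth muscle genes, the log2 ratios were 1.89 for Podn, 1.42 for Adamtsl2, 1.42 for Spon2, 1.07 for Loxl1 and 0.05 for Rspo3. Of 5 portal genes, Ngfr (170 against 222 CPM), Igfbp3 (1197 against 1315), Il34 (139 against 167) and Itgb3 (37.2 against 79.3) had ratios below 1. Of these, Itgb3 was past 2-fold. Without the cells with 5 or more smooth muscle genes, the log2 ratios were -0.91 for Itgb3, -0.45 for Il34, -0.33 for Ngfr and -0.21 for Igfbp3. Tagln was 2-fold higher, at 1625 against 596 CPM, and its log2 ratio was 0.28 without those cells.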
